A study of Mus musculus with 12 samples.

Results

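The fragments described here are the reads that the deposited table lists under 1 mitochondrial precursor, pre_chrM.tRNA2-ValTAC, the precursor of the valine tRNA with anticodon TAC (mt-Val-TAC). Its members are the distinct sequences listed under that precursor and under no other tRNA, whatever their subtype, and there were 1425 of them among the 87699 distinct sequences of the series. The precursor was chosen by a measured value, its high read total, so that total is given as a description and was not tested. The authors' own listing decided which sequences belong to it. Together the members carried 104000 of 1705883 reads, or 6.10% of all reads assigned to tRNAs. Of these members, 1424 had the subtype Other and 1 the subtype tRF-1.

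The libraries hold RNAs of 14 to 40 nt from whole liver of male B6D2F1/Crl mice, aged 8 to 12 weeks, that were wild type (WT) or lacked NSun2 through a deletion made with CRISPR/Cas9 (NS-KO). Liver injury was caused with carbon tetrachloride (CCl4), given into the abdomen as 40% CCl4 in corn oil at 2 ml per kg. The groups were WT D0, WT D3, WT D27, NS-KO D0, NS-KO D3 and NS-KO D27, with 2 libraries each. D0 mice received vehicle, D3 livers were taken on day 3 after 1 injection, and D27 livers on day 27 of repeated injections. Nothing in the labels says whether a library came from 1 animal or from pooled animals. The paper describes 2 independent biological replicates per sample and, for fragment numbers by day, gives n = 2 mice. The p-values measure the spread between libraries only. The NSun2 mRNA cannot be checked in these files, which hold reads assigned to tRNAs only. In whole liver, fewer cells of a type and less RNA per cell cannot be told apart.

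Vertebrate mitochondria copy their genome as long polycistronic transcripts, in which tRNAs stand between the rRNAs and mRNAs and mark where these are cut out. Mitochondrial RNase P cuts at the 5′ end of a tRNA and ELAC2 (RNase Z) at its 3′ end, after which CCA is added to the tRNA. The valine tRNA lies between the 12S and the 16S rRNA, so that both cuts around it also set an rRNA end. NSUN2 is an RNA methyltransferase that makes 5-methylcytosine in many tRNAs, mitochondrial ones included.

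The precursor spans chrM:985-1133 on the heavy-strand sense, 149 bases counted from 1. RefSeq (GRCm38) places the tRNA gene TrnV at chrM:1025-1093, mt-Rnr1 (12S rRNA) at chrM:70-1024 and mt-Rnr2 (16S rRNA) at chrM:1094-2675. The 40-base leader before the tRNA is therefore the 3′ end of the 12S rRNA, and the 40-base trailer after it is the 5′ start of the 16S rRNA. The precursor is shown because the reads are described by their place on it. Capitals mark the tRNA.
mt-Val-TAC precursor: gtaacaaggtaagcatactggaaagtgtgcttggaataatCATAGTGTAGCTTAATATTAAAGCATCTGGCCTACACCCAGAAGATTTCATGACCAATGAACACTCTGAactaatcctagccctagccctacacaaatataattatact

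Nearly all reads of this precursor were copies of the first bases of the 16S rRNA. The trailer held 1095 of the 1425 sequences and 102899 reads, 98.9% of the total. The leader held 230 sequences and 799 reads, the leader-tRNA junction 39 sequences and 210 reads, and the tRNA-trailer junction 61 sequences and 92 reads. No read lay inside the tRNA alone, because reads were aligned to mature tRNAs first and only the remainder to precursors. The label of precursor fragments thus fits the place of the reads in the table, but a trailer read has the same sequence whether it came from an uncut transcript, from a free trailer or from the 16S rRNA itself, and these cannot be told apart.

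The trailer reads began at 1 base. Of all reads of the precursor, 102821 (98.9%) started at chrM:1094, the first base of the 16S rRNA, while the next most used start, chrM:1008 in the leader, had 288 reads. Within the trailer the share that started at its first base was between 99.4% and 100% in every library. For other mitochondrial trailers with at least 1000 reads, this share over all libraries was 92.3% for mt-Trp-TCA, 87.8% for mt-Gln-TTG and 98.7% for mt-Gly-TCC. For mt-Phe-GAA it was 0.230%, with 96.0% of reads starting at the second trailer base, which is chrM:70, the first base of the 12S rRNA. At both rRNAs the reads therefore started at the annotated first base of the rRNA.

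The 10 members with the highest mean level carried 67.5% of the precursor's reads, and they all started at chrM:1094 and differed only in where and how they ended. They are shown in order of mean level because they carry most of the signal. A capital marks a last base that differs from the genome.
member 1, 21 nt: actaatcctagccctagccct
member 2, 24 nt: actaatcctagccctagccctaca
member 3, 25 nt: actaatcctagccctagccctacac
member 4, 22 nt: actaatcctagccctagcccta
member 5, 20 nt: actaatcctagccctagccT
member 6, 23 nt: actaatcctagccctagccctac
member 7, 21 nt: actaatcctagccctagcccA
member 8, 20 nt: actaatcctagccctagccc
member 9, 25 nt: actaatcctagccctagccctacaT
member 10, 21 nt: actaatcctagccctagcccC

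Levels are given in CPM, each library's reads assigned to tRNAs scaled to the same total, which is a share of the library. Member 1, actaatcctagccctagccct, had a mean of 15735 CPM over the 12 libraries, a lowest value of 5527 CPM, a median of 13022 CPM and a highest of 42440 CPM. In WT it had 10284 and 12144 CPM at D0, 16880 and 8600 CPM at D3, and 13902 and 6340 CPM at D27. In NS-KO it had 32082 and 42440 CPM at D0, 5527 and 6102 CPM at D3, and 18904 and 15614 CPM at D27. The NS-KO D0 libraries were thus the highest and the NS-KO D3 libraries the lowest. Member 2, actaatcctagccctagccctaca, had a mean of 10994 CPM and ranged from 4217 CPM in a WT D27 library to 20836 CPM in an NS-KO D0 library. Its NS-KO D3 values, 5618 and 6495 CPM, lay within the range of the WT libraries. The means of members 3 to 10 fell from 5374 CPM to 2528 CPM. As the members were ranked on these levels, no test was applied to the ranking.

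The members were otherwise a long tail. Of the 1425 sequences, 599 were seen with 1 read in all, and 175 matched the genome perfectly. The perfect matches carried 59.8% of the reads. A library held between 324 and 568 of the 1425 members, with the 2 highest counts, 568 and 532, in NS-KO D3. Those 2 libraries also held the most distinct sequences over all tRNAs, 32656 and 25470 against 9758 to 16015 in the other 10 libraries.

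The lengths of the reads from the first trailer base had 2 peaks. Over all libraries 30.7% were 21 nt and 17.5% were 24 nt, and together 20 to 21 nt made up 42.2%, 22 to 23 nt 15.3% and 24 to 26 nt 35.6%. Reads of 27 to 39 nt made up 3.92%, and reads of 40 nt, the whole trailer and the longest the table can hold, 2.05%. The 40-nt member is shown because it marks that limit, and longer 16S fragments could not be listed.
40-nt member: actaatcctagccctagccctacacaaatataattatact
It had 1346 reads, with between 72 and 149 reads in each library.

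The balance of the peaks differed between libraries. The 21-nt share was 30.0% to 34.1% in the 6 WT libraries and 33.4% and 35.1% in NS-KO D0, but 23.2% and 22.7% in NS-KO D3 and 25.6% and 24% in NS-KO D27. The 24-nt share was 15.5% to 18.4% in WT and 16.6% and 13.9% in NS-KO D0, against 19.3% and 20.8% in NS-KO D3 and 22.2% and 21.6% in NS-KO D27. For both lengths the 4 injured NS-KO libraries lay outside the range of the other 8. These length shares were picked after the values were seen and were not tested.

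**Figure D1:**
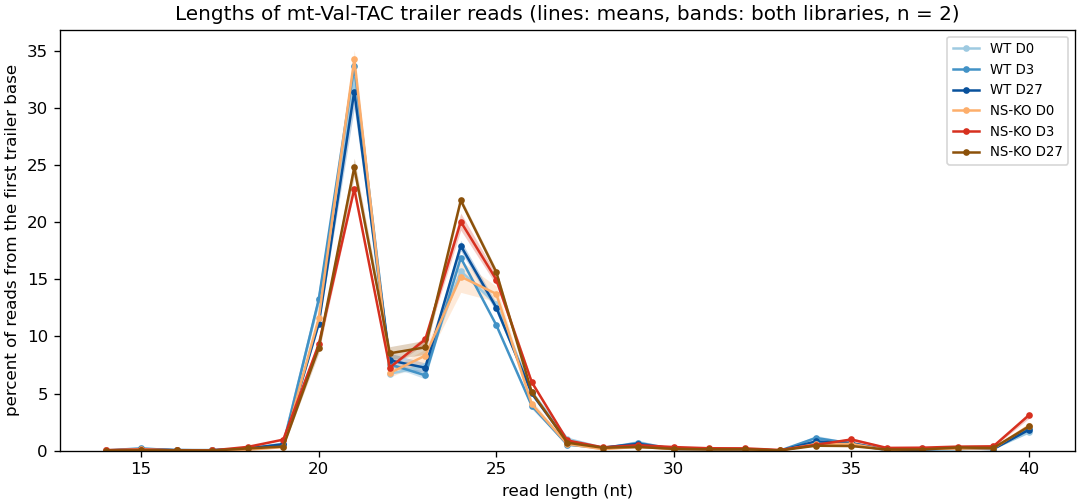
Percent of the reads from the first trailer base of mt-Val-TAC at each read length (nt), with a line for the mean of each group and a band for its 2 libraries. The 21-nt peak is lower and the 24-nt peak higher in NS-KO D3 and NS-KO D27 than in the other 4 groups.

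The mean length of all trailer reads was tested by exchanging genotype labels among the libraries of each day, an exact two-sided permutation test whose smallest possible p is 0.00926. WT trailer reads averaged 23.1 ± 0.0946 nt and NS-KO trailer reads 23.5 ± 0.327 nt (SD, n = 6 libraries each). The NS-KO mean was longer by 0.376 nt (exact permutation p = 0.0185, p = 0.0463 after Benjamini-Hochberg adjustment over the 5 measures tested this way). Its size by day was 0.0581 nt (D0), 0.767 nt (D3) and 0.303 nt (D27). On D0 and D27 alone it was 0.18 nt (exact permutation p = 0.111, where the test cannot go below 0.0556). Member 1 held 19.7 ± 0.938% of the WT and 17.4 ± 3.43% of the NS-KO precursor reads (SD, n = 6), which did not pass the test (exact permutation p = 0.111, adjusted p = 0.139). For the share of trailer reads that started at the first trailer base the NS-KO minus WT difference was -0.156 percentage points (exact permutation p = 0.269, adjusted p = 0.269).

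The last base of a trailer read often differed from the genome. Between 57.3% and 62.9% of the reads from the first trailer base matched perfectly, 24.2% to 31.4% had their single allowed mismatch at the last base, 2.30% to 3.47% at the first base and 8.49% to 10.9% at a base in between. Of the printed members, 4 are of this kind, and the positions of their changes, counted from 1 at the 5′ end with the genome's base first, were C20T in member 5, T21A in member 7, C25T in member 9 and T21C in member 10. Of all last-base mismatches, 36% to 50.7% by library were read as T, 24.8% to 36% as A, 7.31% to 16.1% as C and 5.39% to 29.6% as G. Such mismatches were not particular to these reads, since among all other sequences in the series 26.8% to 47.2% of reads had a mismatch at the last base. A base added after the cut and a sequencing error at that place give the same read.

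The level of the whole precursor depended on how libraries were scaled. As a share of reads it was 50533 and 61969 CPM in WT D0, 85371 and 40894 CPM in WT D3, and 75970 and 32986 CPM in WT D27. In NS-KO it was 151769 and 191938 CPM at D0, 37942 and 44029 CPM at D3, and 115002 and 95872 CPM at D27. On this scale NS-KO lay above WT at D0 and at D27, and the NS-KO D3 libraries lay inside the WT range. The share of reads outside one 5′ fragment class, tRF-5c, ran from 28.5% to 64.4% in WT and from 69.6% to 87.5% in NS-KO, so the total that a CPM refers to holds more tRF-5c in WT. The main test therefore used TMM scaling, which takes the typical sequence as level between libraries, with factors from 0.509 to 1.85.

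On the TMM scale no genotype difference of the precursor passed the test. Its TMM-scaled CPM were 99181 and 84735 in WT D0, 59948 and 55772 in WT D3, 93737 and 64810 in WT D27, 106480 and 105381 in NS-KO D0, 47101 and 45877 in NS-KO D3, and 62130 and 57160 in NS-KO D27. The highest libraries were those of NS-KO D0 and the lowest those of NS-KO D3. Over days the log2 fold change of NS-KO over WT was -0.16 with a standard error (SE) of 0.19 (adjusted p = 0.522 in limma). Day by day it was 0.21 (D0, adjusted p = 0.768), -0.31 (D3, adjusted p = 0.539) and -0.39 (D27, adjusted p = 0.565), each with SE 0.32. Scaled by reads outside tRF-5c, the D3 value was -1.13 (adjusted p = 0.0229). Of all 165 tRNA sums tested, 40.6% passed over days, 7.27% at D0, 31.5% at D3 and 6.06% at D27. Scaled by library size only, the log2 fold change was 0.72 over days (adjusted p = 0.00503), 1.61 at D0 and 1.07 at D27, while the median over all sums over days moved from 0.23 with TMM to 1.03. Over days the precursor lay below that median under both scalings, by a distance that was not tested. At D0 it lay above the median of that day, with 0.21 against 0.14 (TMM) and 1.61 against 1.46 (library size only). At D3 and D27 it lay below the median under both.

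**Figure D2:**
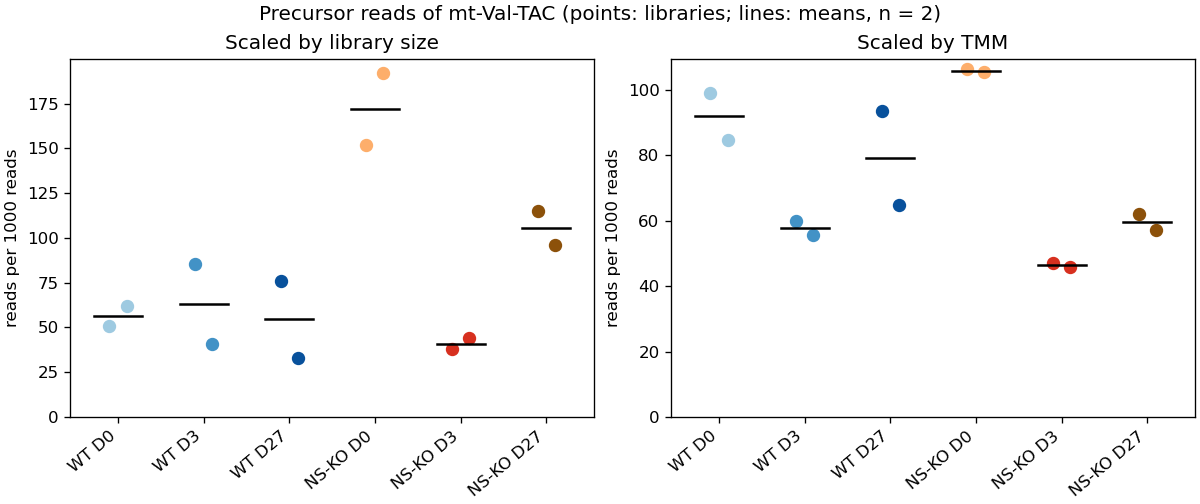
Reads of the mt-Val-TAC precursor per 1000 reads in each library (points) and group means (lines, n = 2), scaled by library size on the left and by TMM on the right. NS-KO D0 is the highest group in both panels and NS-KO D3 the lowest, while the order of WT and NS-KO at D27 turns with the scaling.

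Within NS-KO the precursor fell between D0 and D3. The log2 change was -1.19 with SE 0.32, a level 2.28-fold lower at D3 (adjusted p = 0.0154), and it was -2.06 when scaled by library size only (adjusted p = 1.2e-05). Leaving out any 1 of the 4 libraries of this contrast kept the change between -1.21 and -1.17 but moved the adjusted p to between 0.0502 and 0.068. In WT the change from D0 to D3 was -0.66 with SE 0.32 (adjusted p = 0.565), and by library size only it was 0.078. The genotype difference in the D3 over D0 change was -0.52 with SE 0.46 (adjusted p = 0.574), while by library size only it was -2.14 (adjusted p = 0.00572), so whether the fall differed between genotypes depended on the scaling. For this difference the median over all 165 sums moved from 0.23 with TMM to -1.27 by library size only. On the latter scale 41 sums passed, 33 of them lower. How much of the -2.14 was a shift shared by the sums was not tested. At D27 over D0 the log2 change was -0.83 in NS-KO (adjusted p = 0.249) and -0.23 in WT (adjusted p = 0.812), with a genotype difference of -0.60 (adjusted p = 0.730). Of the 165 sums, 23% passed for NS-KO D3 over D0, 2.42% for NS-KO D27 over D0, 15.2% for the genotype difference at D3, and 0% for WT D3 over D0, WT D27 over D0 and the genotype difference at D27, where 11, 17 and 10 sums had an unadjusted limma p under 0.05.

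The leader behaved differently from the trailer. Leader reads have the sequence of the 3′ end of the 12S rRNA. Whether they came from an uncut transcript or from the 12S rRNA itself cannot be told apart. They numbered 12 and 9 in WT D0, 10 and 18 in WT D3, 13 and 19 in WT D27, 11 and 11 in NS-KO D0, 4 and 6 in NS-KO D27, but 269 and 417 in NS-KO D3. Per 1000 trailer reads of the same library, which needs no scaling, this was 33.2 and 81.4 leader reads in NS-KO D3 against 0.743 to 2.29 in the other 10 libraries. The TMM-scaled leader level was 1508 and 3412.5 CPM in NS-KO D3 against 46.0 to 135.5 CPM elsewhere, without overlap. The leader and D3 contrasts below were picked after these values were seen.

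At D3 the leader was higher in NS-KO than in WT by a log2 fold change of 4.24 with SE 0.42 (adjusted p = 2.51e-06), an 18.8-fold difference. Within NS-KO it rose from D0 to D3 by 4.08 with SE 0.42 (adjusted p = 2.88e-06), a contrast that shares the NS-KO D3 libraries with the one before. The genotype difference in the D3 over D0 change was 3.78 with SE 0.60 (adjusted p = 0.000594), and by library size only it was 2.38 (adjusted p = 0.0474). Over days the log2 fold change was 1.25 with SE 0.24 (adjusted p = 0.00103), and it rested on D3, since on D0 and D27 alone it was -0.24 (adjusted p = 0.618), a direction that turned to 0.97 by library size only (adjusted p = 0.0431). For the trailer the values were -0.40 with SE 0.34 at D3 (adjusted p = 0.454, but -1.22 with adjusted p = 0.0170 when scaled by reads outside tRF-5c), -1.28 with SE 0.34 for NS-KO D3 over D0 (adjusted p = 0.0123) and -0.19 with SE 0.20 over days (adjusted p = 0.512). The trailer's NS-KO D3 over D0 call was lost without NS-KO D0 replicate 1, NS-KO D0 replicate 2 or NS-KO D3 replicate 2, with an adjusted p of 0.0567 to 0.0583. Of the 218 region sums tested, 31.2% passed at D3, 22.9% for NS-KO D3 over D0, 12.4% for the genotype difference at D3 and 39.9% over days.

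**Figure D3:**
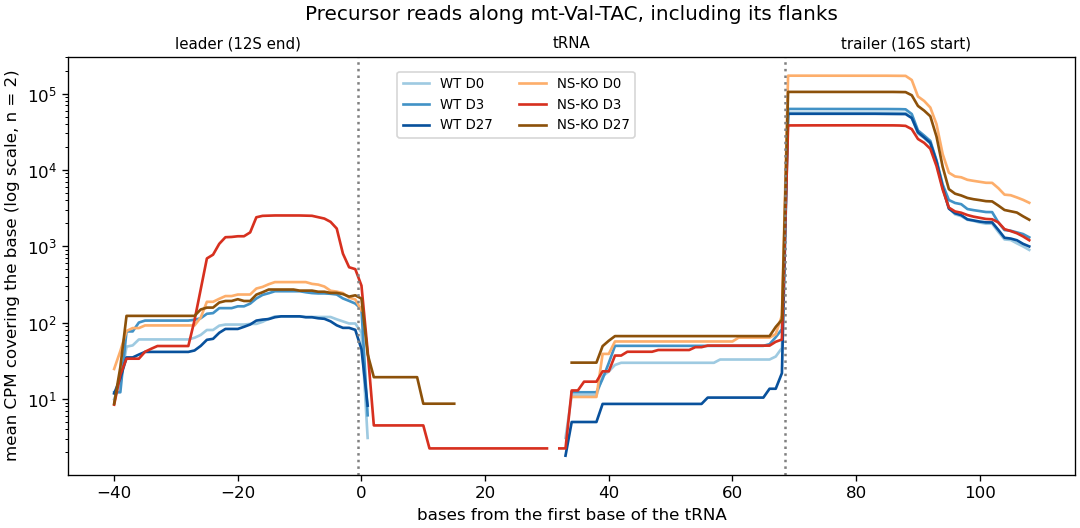
Mean CPM covering each base of the mt-Val-TAC precursor (log scale, n = 2 libraries per group) against the distance in bases from the first base of the tRNA, with dotted lines at the tRNA ends. The NS-KO D3 line lies above all other groups over the 3′ part of the leader and below them at the start of the trailer.

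The most used leader ends were not the same in NS-KO D3 as elsewhere. Of the 686 leader reads of the 2 NS-KO D3 libraries, 40.4% ended at chrM:1021 and 16.3% at chrM:1020, and 34.1% started at chrM:1008. Of the 113 leader reads of the other 10 libraries, 36.3% ended at chrM:1024, the last base of the 12S rRNA, and 12.4% at chrM:1021, while the most used start was chrM:1000 with 16.8%. These ends were compared after the values were seen and were not tested. The 3 most abundant leader members are shown as examples of the leader reads of NS-KO D3, of which they made up 28.9%. Capitals are not used here, since all 3 match the genome.
leader member 1, chrM:1008-1021: agtgtgcttggaat
leader member 2, chrM:1000-1020: tactggaaagtgtgcttggaa
leader member 3, chrM:1008-1022: agtgtgcttggaata
Leader member 1 had 52 and 84 reads in NS-KO D3, 1 read in a WT D27 library and 0 in the other 9 libraries. It is 14 nt long, the shortest length kept, and reads were aligned to tRNA sequences only. Whether so short a read matches elsewhere in the genome was not tested. Leader member 2 had 11 and 20 reads in NS-KO D3 and at most 1 in any other library. Leader member 3 had 15 and 16 reads in NS-KO D3 and 0 in the other 10 libraries. A count of 0 allows up to 3 reads, which is 10.9 to 63.9 CPM depending on the library.

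The reads across the leader-tRNA junction hardly entered the tRNA. Of these 210 reads, 188 covered only 1 tRNA base, and in 186 of them that base was a mismatch. In 183 of the 186 it was read as A where the tRNA starts with C. These reads hold the 12S sequence up to its last base, chrM:1024, followed by an A where the genome has C, and the most abundant one, with 43 reads, is shown with that base in capitals (C18A, counted from the 5′ end of the read).
12S end followed by A: agtgtgcttggaataatA
Whether the A was added to the RNA or arose in the sequencing was not tested. Reads of this kind numbered 12 and 14 in WT D0, 18 and 13 in WT D3, 7 and 8 in WT D27, 13 and 5 in NS-KO D0, 25 and 50 in NS-KO D3, and 6 and 12 in NS-KO D27. They were present in all 12 libraries, and their counts, which are not scaled for depth, were highest in NS-KO D3. As a share of reads the whole leader-tRNA junction had 140 and 471 CPM in NS-KO D3, against 32.7 to 243 CPM in the others. NS-KO D3 replicate 1 thus lay inside the range of the other groups on this scale. On the TMM scale the junction had 173.8 and 491.0 CPM in NS-KO D3, against 58.5 to 163.7 CPM in the others. The whole leader-tRNA junction sum had a log2 fold change of NS-KO over WT of 0.50 with SE 0.29 over days (adjusted p = 0.211) and rose by 1.57 with SE 0.51 for NS-KO D3 over D0 (adjusted p = 0.0345). The latter did not pass by library size only (0.82, adjusted p = 0.350), without NS-KO D0 replicate 2 (1.10, adjusted p = 0.308) or without NS-KO D3 replicate 2 (0.87, adjusted p = 0.354). The 92 tRNA-trailer junction reads had a log2 fold change of 0.19 with SE 0.24 over days (adjusted p = 0.606), and 22 of them started at the last base of the tRNA.

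Single members were tested where they reached 20 CPM in at least 1 library, which 599 of the 1425 did. Over days 8 of these 599 were higher and 3 lower in NS-KO, against 3.81% higher and 2.23% lower of all 22065 sequences tested. At D3, 26 were higher, against 10.3% of all, and 6 lower, against 0.553%. For NS-KO D3 over D0, 25 were higher, against 10.4%, and 21 lower, against 0.825%. The shares called higher lay below those of all sequences in these 3 contrasts, and the shares called lower lay above them at D3 and for NS-KO D3 over D0. The members called lower were trailer sequences of 20 to 25 nt that all started at the first trailer base. As overlapping variants of 1 start they are not independent, so their count is no result about separate members. Of the higher members at D3, 25 lay in the leader and 1 in the trailer. Of the 47 leader members tested, 32 reached 20 CPM in NS-KO D3 libraries only and so entered the test through the group where they were high. The count of leader members that rose is therefore no support for the difference.

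Ratios within a library need no scaling. The log2 ratio of precursor reads to those of all other mitochondrial precursors averaged 2.44 ± 0.296 over the WT and 1.74 ± 0.879 over the NS-KO libraries (SD, n = 6). The difference of -0.70 did not hold after adjustment (exact permutation p = 0.0463, adjusted p = 0.0772). The log2 ratio to mature mt-Val-TAC reads was lower in NS-KO, at 4.15 ± 1.78 against 5.55 ± 0.574 in WT (SD, n = 6), a difference of -1.40 (exact permutation p = 0.0185, adjusted p = 0.0463). Its size by day was -0.62 (D0), -2.99 (D3) and -0.59 (D27), so D3 carried most of it. The NS-KO D3 libraries held 2.25 and 1.56 on this scale, against 4.78 to 6.11 in the other 10 libraries. On D0 and D27 alone the difference was -0.60 (exact permutation p = 0.111).

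Fragments of the mature tRNA were higher in NS-KO at D3. Mature mt-Val-TAC had 9878 and 15606 TMM-scaled CPM in NS-KO D3 against 1329 to 3081 CPM in the other 10 libraries. Its log2 fold change of NS-KO over WT was 2.67 with SE 0.32 at D3 (adjusted p = 2.1e-05) and 1.23 with SE 0.19 over days (adjusted p = 0.000332), and on D0 and D27 alone it was 0.51 (adjusted p = 0.160). Reads of all mature mitochondrial tRNAs made up 30.3% and 50.1% of the NS-KO D3 libraries, 20.4% to 25% of the other NS-KO libraries and 4.81% to 12.0% of the WT libraries. This share moved with the leader and the mature tRNA at D3, and its part in their difference was not tested.

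The other ends of both rRNAs give the nearest comparison. The trailer of mt-Phe-GAA holds the 12S start, and the leader of mt-Leu-TAA the 16S end. The mt-Phe-GAA trailer had 7181 and 10843 TMM-scaled CPM in NS-KO D3 against 1412 to 2731 CPM elsewhere, and was higher at D3 in NS-KO over WT by 1.99 with SE 0.36 (adjusted p = 0.000445). The mt-Leu-TAA leader had 812.9 and 1596 CPM in NS-KO D3 against 149.5 to 267.9 CPM elsewhere, and was higher at D3 by 2.35 with SE 0.40 (adjusted p = 0.000255). Over their whole precursors the log2 fold changes over days were 0.67 with SE 0.20 for mt-Phe-GAA (adjusted p = 0.0154) and 0.82 with SE 0.22 for mt-Leu-TAA (adjusted p = 0.0101), and on D0 and D27 alone they were 0.017 and 0.079. Scaled by reads outside tRF-5c, neither passed over days (0.47, adjusted p = 0.0897, and 0.62, adjusted p = 0.0637). Of the 4 rRNA ends, the 16S start in the mt-Val-TAC trailer was thus the 1 that was not higher in NS-KO at D3 by this test. Of the 13 remaining mitochondrial precursors tested, 1 was higher at D3 and none lower, with a median log2 fold change of 0.31, equal to the median of 0.31 over all 165 sums. That 1 was mt-Thr-TGT, at 1.44 with SE 0.28 (adjusted p = 0.0014). Of all 165 sums, 44 were higher and 8 lower at D3. For NS-KO D3 over D0, 1 of the 13 was higher and none lower, with a median of 0.11 against 0.24 over all sums. The higher one was mt-His-GTG, at 1.25 with SE 0.38 (adjusted p = 0.0285 in limma). The lowest was mt-Gly-TCC, at -0.95 with SE 0.34 (adjusted p = 0.0632 in limma). For this contrast 34 of all 165 sums were higher and 4 lower.

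**Figure D4:**
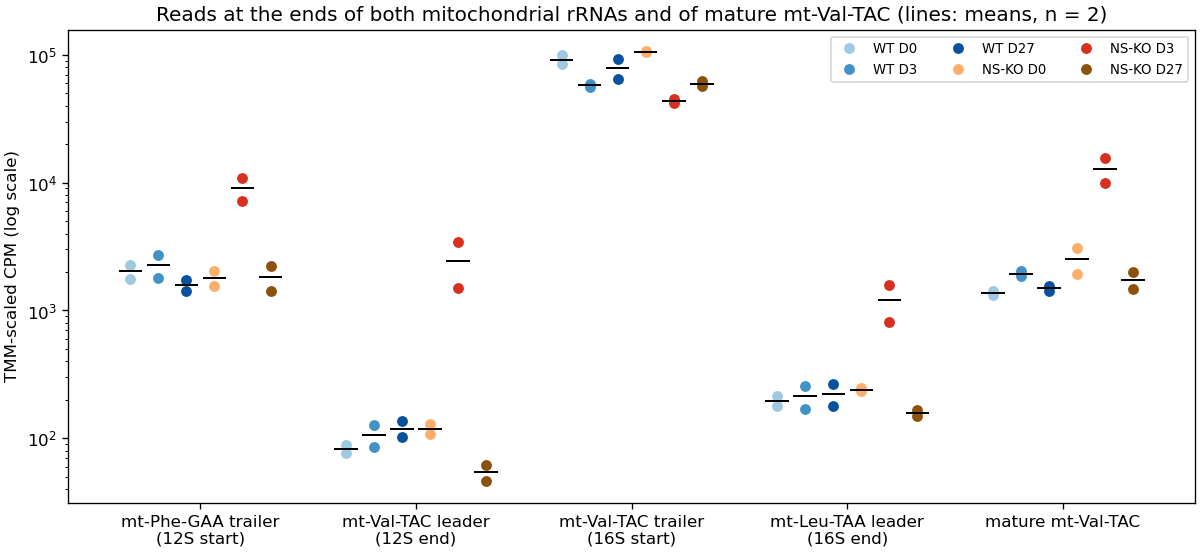
TMM-scaled CPM (log scale) in each library (points) with group means (lines, n = 2) for the reads at both ends of the 12S and the 16S rRNA and for mature mt-Val-TAC. NS-KO D3 lies above all other groups in every column except the mt-Val-TAC trailer, where it is the lowest group.

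The sums whose CPM followed the precursor most closely over the 12 libraries came from nuclear tRNAs. Among 164 other sums, Spearman's rho was 0.916 for the Ala-TGC precursor, 0.902 for mature Leu-CAG, 0.888 for mature Ala-TGC, 0.881 for mature reads shared by Leu-AAG and Leu-TAG, and 0.867 for mature reads shared by Ala-AGC and Ala-TGC. These levels share their libraries and their denominator, so the values describe these 12 libraries only.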

How the data were processed

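Before library preparation the RNA was treated to open its ends for ligation and to remove m1A and m3C. Reads of 14 to 40 nt were cleaned and aligned by the authors with cutadapt and Bowtie, with FastQC also named in the submitters' processing notes, first to mature tRNAs and then to precursors, with 1 mismatch allowed. The mt-Val-TAC precursor has 40 bases on each side of the tRNA, while that of mt-Phe-GAA has no leader. Versions of these 3 tools are not given in the sources used here. The deposited table gives the read count of each sequence in each of 12 libraries, and these counts equalled those in each library's own alignments. Libraries held 46937 to 275568 reads. Each sequence was counted once. The members and lists were chosen with earlier results of these data known. Sums per tRNA and per region that passed an expression filter (165 of 430 and 218 of 628) and the 22065 single sequences that reached 20 CPM were tested with limma 3.58.1 in R 4.3.3 on log2 CPM (prior count 2, trend), with 1 mean per group, TMM factors from the sequences of 20 CPM, and Benjamini-Hochberg adjustment over all features, called at 0.05. TMM and the filter were computed by separate code after their usual definitions. Ratios used a pseudocount of 0.5 reads and exact permutation within days. The table holds text lines within its columns and was not treated as a plain count table, so edgeR and DESeq2 were not run. Named were the 10 members of highest mean CPM, the region sums, mt-Phe-GAA, mt-Leu-TAA, mature mt-Val-TAC, the other mitochondrial precursors as a list and the 5 most similar sums. PCR copies were not marked by molecular identifiers, so intervals and limits on a count of 0 cover counting error only. The fits were tested on simulated data.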

Additional observations from a re-analysis of the deposited data

Results flagged for a closer look

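The following 4 results changed from D0 to D3 by different amounts in the 2 genotypes, by a test of that difference in limma. The genotype difference in the log2 change was 3.78 for the leader of mt-Val-TAC, 1.85 for mature mt-Val-TAC, 2.15 for the trailer of mt-Phe-GAA and 2.07 for the leader of mt-Leu-TAA. Scaled by library size only, the leader of mt-Val-TAC kept the call at 2.38 (adjusted p = 0.0474), while the others were 0.25, 0.55 and 0.55 and did not pass. On that scale the median over all 165 tRNA sums was -1.27, against 0.23 with TMM, so all 4 values still lay above the median sum. Their distance from the median was not tested. Scaled by reads outside tRF-5c, the difference for mature mt-Val-TAC was 1.07 and did not pass (adjusted p = 0.0988 in limma). With that scaling the whole precursors of mt-Phe-GAA and mt-Leu-TAA did not pass either (1.36, adjusted p = 0.0682, and 1.07, adjusted p = 0.211, in limma). With 1 library left out, the leader of mt-Val-TAC stayed between 3.20 and 4.36 and kept its call, while mature mt-Val-TAC lost it without WT D0 replicate 1 or NS-KO D0 replicate 2 (1.80 and 1.52). The mt-Phe-GAA trailer lost it without WT D0 replicate 2 or NS-KO D0 replicate 2 (1.97 and 1.96), and the mt-Leu-TAA leader without any of 5 libraries, over a range from 1.59 to 2.55. With 2 libraries a group, no single library could be tested against its group.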

How the results depend on the processing

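Scaling moved the whole precursor, and other sums as well. With library size only, the precursor's log2 fold change of NS-KO over WT was 0.72 over days, 1.61 at D0 and 1.07 at D27. Its WT D3 over D0 change was 0.078, its genotype difference in the D3 over D0 change was -2.14, and the trailer over days was 0.69. Over days the median of all 165 sums moved from 0.23 with TMM to 1.03, and mature mt-Val-TAC from 1.23 to 2.10. Scaled by reads outside tRF-5c, the precursor's D3 fold change was -1.13 and passed. On D0 and D27 alone, an alternative chosen after seeing the data, the leader over days was -0.24 and the mt-Leu-TAA leader -0.077. There the difference in the log2 ratio to other mitochondrial precursors was -0.34 and in that to mature mt-Val-TAC -0.60. Mean length differed by 0.18 nt and the share from the first trailer base by 0.0082 percentage points. Of the 599 single members tested on these days, 0 were called in limma, with 30 at an unadjusted p under 0.05. With perfect matches only, the ratio to other mitochondrial precursors was -0.48. The count of single members called over days, 11 in the main setting, was 62 with voom, 17 at 50 CPM and 7 with the replicate block. For NS-KO D3 over D0 it was 46, against 71 by library size only and 81 with voom, and for D3 it was 32, against 53 with voom and 20 at 50 CPM. Of all 22065 sequences, 1333 were called over days, 2466 for NS-KO D3 over D0 and 2395 at D3 in the main setting. By library size only, 2159 were called for NS-KO D3 over D0. For the other settings the numbers over all sequences are not given here, so the member counts are no result about the members. With 1 library left out, the member counts ran from 2 to 68 over days (68 without NS-KO D0 replicate 1), 39 to 116 for NS-KO D3 over D0 (the latter without NS-KO D0 replicate 1) and 13 to 51 at D3. The ratio to other mitochondrial precursors ran from -0.83 to -0.57, WT D27 over D0 from -0.50 to 0.032 (the latter without WT D27 replicate 2), the NS-KO D3 over D0 change from -1.21 to -1.17 for the precursor and from -1.33 to -1.22 for the trailer. The leader at D3 stayed between 3.65 and 4.81. The causes of these changes were not tested.

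Replicate numbers were shared by all groups, but only 3 of 15 pairs of groups had same-numbered deviations that correlated above 0.1. The correlations ran from -0.35 to 0.54 with a median of -0.07, and the main fits did not pair libraries by number. This check cannot tell whether same-numbered libraries of some groups were handled together. With the replicate block the precursor over days was -0.16 and no other call changed for the sums. No sequence of this precursor was shared with another tRNA, so adding shared sequences could not be tried. Depth limits the values of the leader outside NS-KO D3, at 4 to 19 reads a library, and of the tRNA-trailer junction, at 4 to 11.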

Other observations

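In 2 libraries the last base of trailer reads was read as G more often than in the others. Of the last-base mismatches, G made up 21.4% (95% Wilson interval 19.9 to 22.9%) in WT D27 replicate 2 and 29.6% (27.4 to 31.9%) in NS-KO D27 replicate 1, against 5.39% to 9.15% in the other 10 libraries. Their partner libraries had 8.14% in WT D27 replicate 1 and 7.54% in NS-KO D27 replicate 2. Among all other sequences of the series the same 2 libraries were the highest, at 9.26% and 19.3%, against 2.83% to 6.41% in the rest. The 21-nt read actaatcctagccctagcccG had 228 and 124 reads in these 2 libraries and 18 to 107 in the others.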
